A study of Homo sapiens with 4 samples.

Results

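The NRSF/REST binding sites described here are those called at both SF-1 dosages that lie at a protein-coding promoter. Of the 5323 sites of the basal list, 3431 overlapped a site of the increased dosage list by at least 1 bp. The midpoint of 477 of these lay within 2 kb, on either side, of the 5′ end of a protein-coding gene in the GENCODE annotation on hg19. They made up 8.96% of the basal list and 13.9% of its shared sites, and counted from the other list they were 476 of 5059 sites. They lay at 480 of the 20163 protein-coding genes, a background of 2.38%. The sites were thus selected on their presence in both lists and on position, and neither property is a result below.

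NRSF/REST is a zinc finger repressor that recruits histone deacetylases and other corepressors to the RE1 element, and it is best known for keeping neuronal genes silent outside the nervous system. The RE1 consensus has a left part, CTGTCC, and a right part, GGTGCTG, separated by 2 free bases. In neurons and neuroendocrine cells NRSF/REST is low, and its targets there include synaptic proteins, ion channels and proteins of secretory granules.

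The cells were H295R/TR SF-1, a single subclone of the human adrenocortical carcinoma line H295R in which doxycycline switches on additional SF-1, the nuclear receptor that drives steroidogenic genes. Chromatin was immunoprecipitated with an antibody against NRSF/REST from untreated cells, the basal SF-1 dosage, and from cells given doxycycline for 3 days, the increased SF-1 dosage. There was 1 library of each, so that no value has a replicate check and no test was made between dosages. The labels also list 2 input DNA libraries of the same cells, which were not analysed here. Each deposited list gives site boundaries on 50-bp steps and a score of 1000 for every site. Width was therefore the only measure of a site's size, depth is unknown, and the 95% Wilson intervals below cover counting error over sites only.

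The sequences at the widest sites are shown first, because width is the only size the lists give. Of the 10 widest by mean width over both lists, the one at CRH is given by name only. The other sites each held a match with 0 or 1 mismatch over the 13 fixed bases. Each sequence runs 5′ to 3′ along the consensus, with 4 bases before and 2 after the match, and capitals mark bases equal to a fixed base of the consensus. Coordinates are those of the match on hg19.
TMEM121B (chr22:17601397-17601411, minus strand): ggcgCTGTCCgtGGTGCTGct
DRD2 (chr11:113345223-113345237, minus strand): gccgCTGTCCttGGTcCTGaa
SLC7A14 (chr3:170302497-170302511, minus strand): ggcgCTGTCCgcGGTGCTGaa
CARTPT (chr5:71015529-71015543, minus strand): gacgCTGTCCcaGGTaCTGac
ST8SIA3 (chr18:55021306-55021320, plus strand): gccgCTGTCCgcGGTGCTGat
NPAS4 (chr11:66189183-66189197, plus strand): gctaCTGTCCgcGGTGCTGaa
VGF (chr7:100807867-100807881, minus strand): ggcgCTGgCCgcGGTGCTGct
EPHA10 (chr1:38230131-38230145, minus strand): ggaaCTGTCCgcaGTGCTGaa
SYT6 (chr1:114697844-114697858, plus strand): ggctCTGTCCacGGTGCTGaa
With positions counted from 1 at the left end of the left part, the single substitutions were G12C at DRD2, G12A at CARTPT, T4G at VGF and G9A at EPHA10. These sites measured 1849 bp at the basal and 1549 bp at the increased dosage at TMEM121B, 1699 and 1599 bp at DRD2, the D2 dopamine receptor, 1649 and 1549 bp at SLC7A14, a membrane transporter, and 1499 bp in both lists at CARTPT, the precursor of the CART neuropeptides. The site at NPAS4, an activity-dependent transcription factor of neurons, differed most between the lists among them, with 1799 and 1099 bp. CRH, which encodes corticotropin-releasing hormone, had 1499 and 1349 bp around an unchanged consensus.

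The next set shows unchanged consensus matches (no mismatch) nearest to an annotated 5′ end. Starts of transcription in these cells were not measured here.
LHX3 (chr9:139096985-139096999, plus strand): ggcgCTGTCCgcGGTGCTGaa
TTC9B (chr19:40724259-40724273, minus strand): cgcgCTGTCCccGGTGCTGat
OGDHL (chr10:50970471-50970485, plus strand): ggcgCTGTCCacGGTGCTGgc
CNTNAP2 (chr7:145813025-145813039, minus strand): gatgCTGTCCgcGGTGCTGaa
VWC2L (chr2:215275840-215275854, plus strand): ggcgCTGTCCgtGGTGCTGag
SYT5 (chr19:55691572-55691586, plus strand): ggcgCTGTCCcgGGTGCTGat
The middle of the match was 18 bp upstream of the 5′ end of LHX3, a LIM homeobox factor of pituitary and motor neurons, 53 bp upstream at OGDHL and 62 bp upstream at CNTNAP2, a neuronal adhesion molecule. It was 25 bp downstream in the coding exon of TTC9B, and 69 and 78 bp downstream, in the UTR, at VWC2L and at the synaptotagmin gene SYT5. At LHX3, OGDHL and CNTNAP2 the 200 bases before the 5′ end overlapped no annotated exon and are given in the direction of transcription, with the match in capitals. There the match reads as its reverse complement, because it ran against the gene.
LHX3 (chr9:139096975-139097174, minus strand): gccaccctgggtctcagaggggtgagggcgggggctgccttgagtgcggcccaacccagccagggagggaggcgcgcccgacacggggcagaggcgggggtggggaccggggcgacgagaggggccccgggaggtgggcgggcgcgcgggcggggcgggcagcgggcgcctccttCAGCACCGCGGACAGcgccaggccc
OGDHL (chr10:50970426-50970625, minus strand): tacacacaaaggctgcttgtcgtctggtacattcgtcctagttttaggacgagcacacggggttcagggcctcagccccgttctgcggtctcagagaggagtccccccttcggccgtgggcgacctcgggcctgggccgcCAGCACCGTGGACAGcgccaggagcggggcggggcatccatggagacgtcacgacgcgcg
CNTNAP2 (chr7:145812894-145813093, plus strand): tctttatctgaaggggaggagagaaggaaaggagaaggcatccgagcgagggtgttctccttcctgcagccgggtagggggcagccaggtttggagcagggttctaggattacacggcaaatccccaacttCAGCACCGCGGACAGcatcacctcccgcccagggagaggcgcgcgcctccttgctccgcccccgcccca
Around these matches the sites were 849 and 1349 bp wide at LHX3, 899 and 949 bp at OGDHL and 1599 and 1149 bp at CNTNAP2, at the basal and increased dosages, respectively.

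The genes were described with 21 lists drawn up by gene symbol, and each list is read against the 2.38% of all protein-coding genes. The lists were chosen with earlier results of these data known, so their shares and intervals are a description and not a test. In all, 107 of the 480 genes (22.3%, 95% interval 18.8–26.2%) belonged to at least 1 of the neuronal or neuroendocrine lists, which together hold 720 genes, 3.57% of all protein-coding genes. Of these 720, the same 107 (14.9%, 12.4–17.6%) had a site, to be read against the 2.38%. The most densely covered list was that of granins and prohormone processing, the cargo and enzymes of dense-core secretory granules, with 9 of 14 genes (64.3%, 38.8–83.7%). It included CHGA and CHGB, the chromogranins, SCG2 and SCG3, the secretogranins, the peptide precursor VGF, the prohormone convertases PCSK1 and PCSK2, and the granule membrane proteins PTPRN and PTPRN2. The site at CHGA was 999 bp wide at the basal and 1399 bp at the increased dosage, those at CHGB and SCG3 had the same width at both dosages (649 and 699 bp), and SCG2 had 499 and 599 bp. Of the list's 12 sites, 6 held the consensus.

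**Figure D1:**
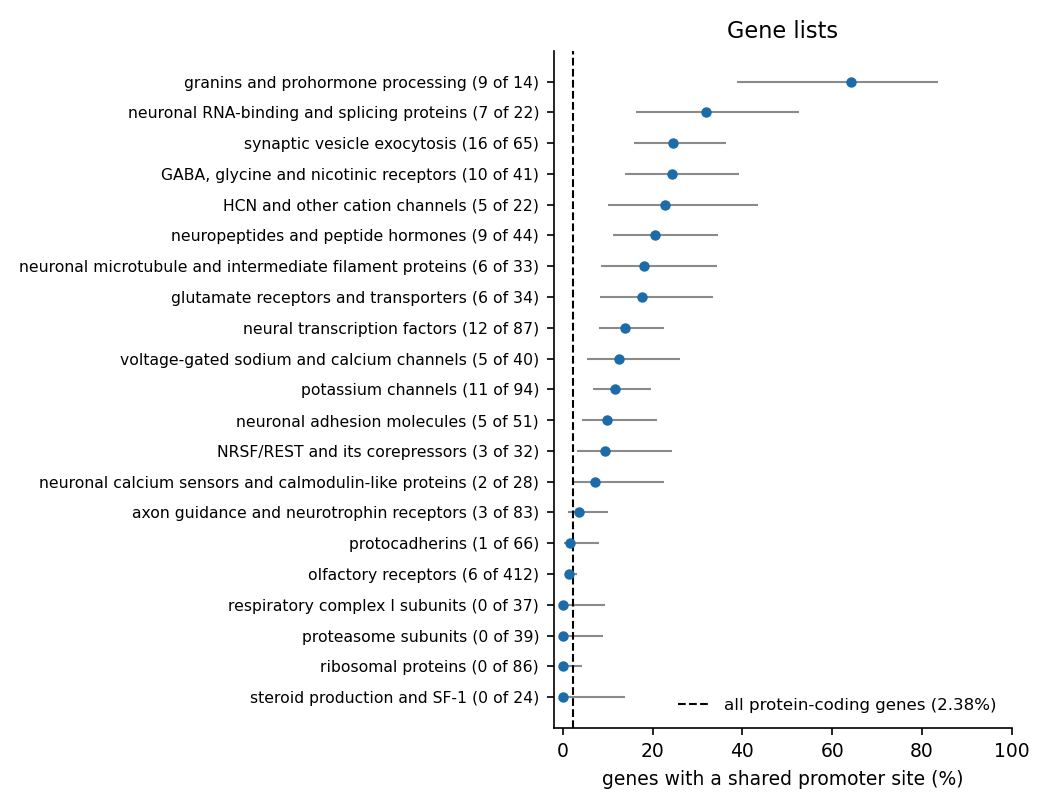
Percent of the genes of each list with an NRSF/REST site at the promoter at both SF-1 dosages (horizontal axis, points), with 95% Wilson intervals as lines and the number of genes in parentheses. The dashed line marks all protein-coding genes (2.38%); granins and prohormone processing stand highest at 64.3%, and 4 lists, steroid production among them, are at 0.

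Of the genes of the vesicle release machinery, 16 of 65 (24.6%, 15.8–36.3%) had a site. Among them were the synaptotagmins SYT4, SYT5 and SYT6, membrane proteins of vesicle trafficking, the complexins CPLX1, CPLX2 and CPLX3, which clamp the SNARE complex, and the active zone proteins BSN, PCLO, RIMS1, RIMS2 and UNC13A. The site at CPLX2 was 1449 and 1349 bp wide and that at BSN 1149 and 949 bp. The vesicle proteins SYP (499 and 549 bp) and SYN1 (749 and 599 bp) had narrower sites, each with an unchanged consensus. The consensus was present in 7 of the 17 sites of this list and in 8 of the 9 at the neuropeptide genes below.

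Receptors and channels made up the next groups. Among the receptors for GABA, glycine and acetylcholine 10 of 41 genes had a site (24.4%, 13.8–39.3%), including the glycine receptor subunits GLRA1, GLRA2 and GLRA3 and the nicotinic subunits CHRNA2, CHRNA4 and CHRNB2. Among glutamate receptors and transporters 6 of 34 had one (17.6%, 8.35–33.5%), spread over 10 sites, with 3 sites at the NMDA receptor gene GRIN1 alone. HCN and other cation channels reached 5 of 22 (22.7%, 10.1–43.4%), and all 5 of their sites held the consensus, among them those at the pacemaker channels HCN2 and HCN3, the cyclic nucleotide-gated channel CNGA3 and TRPC7. For voltage-gated sodium and calcium channels the count was 5 of 40 (12.5%, 5.46–26.1%) and for potassium channels 11 of 94 (11.7%, 6.66–19.8%). In the last group the site at KCNH4 measured 1299 bp in both lists and held an unchanged consensus.

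Neuropeptide and peptide hormone genes numbered 9 of 44 (20.5%, 11.2–34.5%): CARTPT, CRH, SST, NPPB, NMS, ADCYAP1, VIP, PENK and UCN. Neuronal RNA-binding proteins, which include the splicing regulators CELF3, CELF4, CELF6, SRRM3 and SRRM4, reached 7 of 22 (31.8%, 16.4–52.7%). SRRM4, which promotes neural exon inclusion, including in the REST transcript itself, had a site of 899 and 949 bp with 1 mismatch in its match. Microtubule and intermediate filament genes of neurons counted 6 of 33 (18.2%, 8.61–34.4%), among them NEFH, NEFM and INA. Neural transcription factors counted 12 of 87 (13.8%, 8.07–22.6%), with BARHL1 (1399 and 1299 bp) the widest, and neuronal adhesion molecules 5 of 51 (9.80%, 4.26–21%).

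The intervals of the remaining neuronal lists reached down to or below the background: 2 of 28 calcium sensors (7.14%, 1.98–22.6%), 3 of 83 axon guidance and neurotrophin genes (3.61%, 1.24–10.1%), one of which was BDNF, and 1 of 66 protocadherins (1.52%, 0.268–8.10%). In the list named for NRSF/REST and its corepressors 3 of 32 genes had a site (9.38%, 3.24–24.2%). These were REST itself, ACTL6B, the neuronal BAF complex subunit, and PHF21B, so the share is not one of corepressor genes alone. The site in the REST gene was 899 bp wide at the basal and 799 bp at the increased dosage, had its midpoint 658 bp downstream of the 5′ end, in an intron, and held no consensus match, its best match having 3 mismatches. None of the 24 genes for steroid production and SF-1 had a shared promoter site, which allows a share of up to 12.5% when the limit for a count of 0 is set at 3 counts of the total. The comparison lists of ribosomal proteins (0 of 86, up to 3.49%), proteasome subunits (0 of 39, up to 7.69%) and respiratory complex I (0 of 37, up to 8.11%) were also without one. Olfactory receptors had 6 sites at 412 genes (1.46%, 0.669–3.14%), and 5 of these held the consensus.

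The study also transfected these cells with small interfering RNA against NRSF/REST, and the names of the genes that its supplement lists as raised were looked up among the shared promoter sites. The names were taken without their values, and they come from the same cells, so they are no independent sample. Of 36 protein-coding names raised at either dosage, 27 (75%, 58.9–86.2%) had such a site, against 2.38% of all protein-coding genes. They included CHGA, CHGB, SCG2, SCG3, SYP, CPLX2, UNC13A, CHRNB2, GLRA1, GLRA2, PTPRN, HPCA, INA and ACTL6B. For names raised at both dosages the count was 15 of 17 (88.2%, 65.7–96.7%), the exceptions being GPR19 and L1CAM. The steroidogenic genes CYP19A1 and CYP21A2, listed as raised at the basal dosage only, were among the names without a shared promoter site. SNAP25, CALB1 and GNRHR were also without one. Sites beyond 2 kb or called at 1 dosage are not counted for any of these names. None of the 4 lowered protein-coding names had a site, a list too short to limit the share.

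The 27 genes had 28 sites, because SEZ6L had 2. Their median width over both lists was 911.5 bp, against 624 bp for all 477 sites, and they ranged from 449 to 1599 bp. The consensus was present in 17 of the 28, unchanged in 11 of these. Matches at 5 of them are shown, for a chromogranin, a nicotinic and a glycine receptor, synaptophysin and a phosphatase-like protein of granules.
CHGA (chr14:93389870-93389884, minus strand): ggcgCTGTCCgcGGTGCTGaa
CHRNB2 (chr1:154540432-154540446, minus strand): ggcgCTGTCCgtGGTGCTGaa
GLRA1 (chr5:151304317-151304331, minus strand): gacgCTcTCCgtGGTGCTGaa
SYP (chrX:49056585-49056599, plus strand): ggctCTGTCCacGGTGCTGga
PTPRN (chr2:220173045-220173059, plus strand): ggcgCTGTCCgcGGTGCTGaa
At CHGA, CHRNB2, SYP and PTPRN the match was unchanged, and at GLRA1 it carried G3C. CHRNB2 was 849 bp wide in both lists, GLRA1 1049 and 1149 bp, and PTPRN 749 and 849 bp, at the basal and increased dosages, respectively.

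With respect to the gene, the sites lay downstream of the 5′ end more often than upstream. The midpoint was upstream at 160 sites (33.5%, 29.5–37.9%) and downstream at 317, with a median position 256 bp downstream and quartiles 203 bp upstream and 877 bp downstream. Within 500 bp of the 5′ end there were 216 sites (45.3%, 40.9–49.8%), and 163 (34.2%, 30.1–38.5%) spanned the 5′ end. By annotation the midpoint fell in an intron at 163 sites, in a UTR at 91 and in a coding exon at 53. The 5′ end was that of the whole gene record, so a site at a transcript start inside the gene could count as downstream. When the 5′ ends of all transcripts were used in place of those of genes, 39.7% of the 615 sites then counted were upstream.

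**Figure D2:**
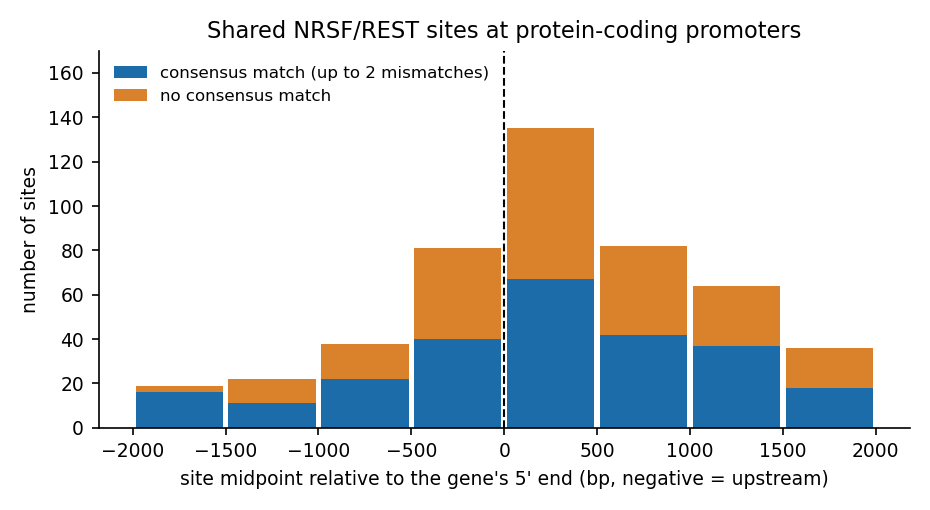
Number of shared promoter sites by the position of their midpoint relative to the gene's 5′ end, in 500-bp bins (negative is upstream), split into sites with (blue) and without (orange) a consensus match at up to 2 mismatches. The bin from 0 to 500 bp downstream is the highest, with 135 sites against 81 in the bin just upstream, and in each of these bins about as many sites had a match as had none.

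The consensus match itself, counted in 253 sites, lay upstream of the 5′ end in 90 (35.6%, 29.9–41.6%), in an intron in 79, in a UTR in 41 and in a coding exon in 35. Its median position was 304 bp downstream. It ran in the direction of transcription in 130 sites (51.4%, 45.3–57.5%), an interval that includes equal use of the strands. By 500-bp bin of position, the share of sites with a match was 49.4% just upstream and 49.6% just downstream of the 5′ end. It was 84.2% (62.4–94.5%) in the farthest upstream bin, which held 19 sites. The median distance from the match to the site's midpoint was 54 bp.

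A consensus match with at most 2 mismatches was present in 253 of the 477 sites (53.0%, 48.6–57.5%). Windows of the same width 10 kb to either side held one in 3.46%, and windows of the same width and offset placed at all protein-coding 5′ ends in 4.74%. An unchanged consensus was found in 94 sites (19.7%, 16.4–23.5%), against 0.105% of the promoter windows. At 3 mismatches 75.7% of the sites had a match, but so did 30.2% of the promoter windows.

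**Figure D3:**
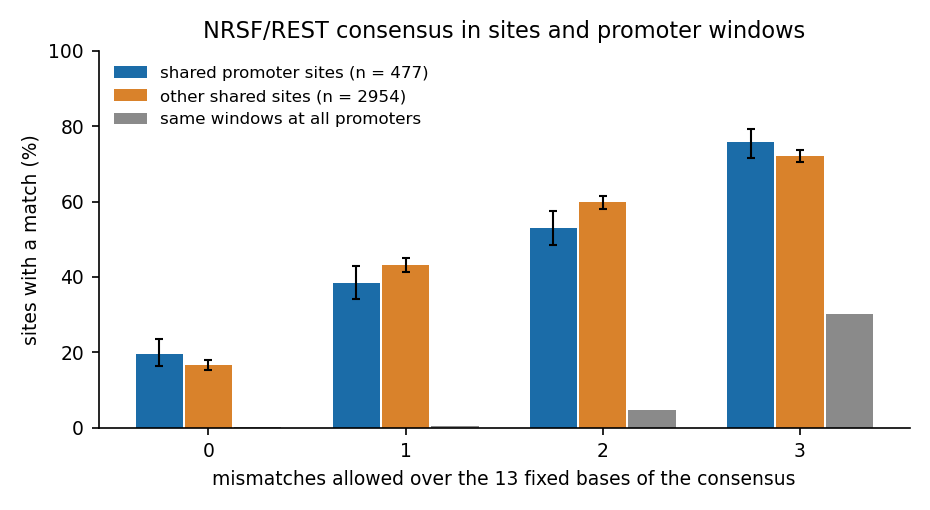
Percent of sites with a match to the NRSF/REST consensus (vertical axis) by the number of mismatches allowed over its 13 fixed bases. Blue bars are the 477 shared promoter sites and orange bars the other 2954 shared sites, with 95% Wilson intervals; gray bars are windows of the same width and offset at all protein-coding promoters, which hold 0.105% at 0 mismatches and 4.74% at 2.

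The other 2954 shared sites held a match with at most 2 mismatches in 59.9%. The difference of -6.81 points (95% interval from -11.6 to -2.03) was not stable over settings. It was 3.02 points with no mismatch allowed and 3.51 points with 3, both with intervals across 0, and -3.22 points, from -7.56 to 1.06, with the 5′ ends of all transcripts. The promoter sites were also wider, with a median of 599 bp against 449 bp. Within 4 classes of basal width, chosen after the data were seen, the difference was negative in each. Of sites 599 to 799 bp wide, 60.2% at promoters and 83.5% elsewhere held a match (difference -23.3 points, from -32.8 to -14.3). In the other classes the differences were -13.7 points for 99 to 299 bp, -8.86 for 349 to 549 bp and -12.6 for 849 bp and over, and every interval lay below 0. Among the promoter sites alone the share with a match was 21.6% in the narrowest class and 73.2% in the widest.

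The bases within the matches also differed between promoter sites and other shared sites. The bases were read in 241 matches at promoters and 1672 elsewhere. The 2 free bases read GC, as in the sequences of CHGA, SLC7A14 and LHX3, in 14.9% of promoter matches and in 2.39% of the others (difference 12.5 points, from 8.51 to 17.6). They read AT in 10.4% and 27.9%, respectively (-17.6 points, from -21.5 to -12.6). The promoter sites had a median GC content of 61.1% against 45.5%, and its part in these differences was not tested. Position 12, in the right part, was the most often substituted, in 19.9% of promoter matches and 36.4% of the others. G12C alone accounted for 9.13% and 19.4%. Position 4 carried a substitution in 15.8% and 11.1%, with T4G the commonest change at promoters. Outside the fixed bases, promoter matches had G at 4 bases before the match in 69.7% and A just after it in 68.9%, close to the 66.4% and 69.8% at other sites.

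In the 224 promoter sites without a consensus match, the left and right parts were searched for separately, in order and on the same strand, at most 1 mismatch in each and 0 to 20 bases apart other than 2. Both parts were found in 115 of these sites (51.3%, 44.8–57.8%), in 17.2% of windows 10 kb away and in 22.8% of the windows at all promoters. When neither part was allowed a mismatch the contrast was larger. Such a pair was present in 37 sites (16.5%, 12.2–21.9%), in 0.176% of the promoter windows and in 0 of 448 windows 10 kb away, which allows a share of up to 0.670% by the same limit of 3 counts. Of the other shared sites without a consensus match, 9.11% (7.60–10.9%) held a pair without mismatch. The distance was 7 to 10 bases in 35 of the 37. With no mismatch there were 7 sites at 7 bases, 12 at 8, 9 at 9 and 7 at 10, and 1 site each at 0, 1, 6 and 20 bases, a site with more than one pair being counted at each distance.

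Pairs without mismatch are shown for 6 sites, those at genes raised by the knockdown and that at BSN, one of the widest sites without any match at up to 3 mismatches. Capitals mark the parts, and the lower case letters between them are the bases that separate them.
CPLX2 (chr5:175223987-175224006, minus strand): ggagCTGTCCccgagatGGTGCTGga
UNC13A (chr19:17799151-17799171, minus strand): ggcgCTGTCCgcgcccccGGTGCTGaa
ACTL6B (chr7:100254021-100254042, minus strand): ggagCTGTCCggccgcctcGGTGCTGat
SEZ6L (chr22:26566940-26566961, minus strand): agagCTGTCCagggcctttGGTGCTGaa
SCG3 (chr15:51973710-51973730, minus strand): agcgCTGTCCgccctgtgGGTGCTGaa
BSN (chr3:49592148-49592170, minus strand): ggagCTGTCCgccaccggccGGTGCTGaa
The parts stood 7 bases apart at CPLX2, 8 at UNC13A and SCG3, 9 at ACTL6B and SEZ6L and 10 at BSN. The middle of the pair lay 13 bp downstream of the 5′ end at UNC13A, 31 bp at SCG3 and 39 bp at ACTL6B. SCG3 and SEZ6L, like BSN, held no match of the full consensus even at 3 mismatches. The sites measured 999 and 949 bp at UNC13A, 849 bp in both lists at ACTL6B and 699 and 749 bp at SEZ6L, at the basal and increased dosages, respectively.

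The bases next to the parts were not used in the search. In 36 pairs without mismatch whose bases were read, G stood 4 bases before the left part in 91.7% (78.2–97.1%) and directly before it in 88.9% (74.7–95.6%), and A directly after the right part in 88.9% (74.7–95.6%). At the full consensus in promoter sites the same places held G in 69.7% and 61.0% and A in 68.9%. Those matches included ones with mismatches, and the bases beside unchanged matches were not counted separately. The shares are therefore not directly comparable with those of the pairs without mismatch. The 37 sites with such a pair had a median width of 749 bp at the basal and 799 bp at the increased dosage. The 109 sites (22.9% of 477, 19.3–26.8%) with neither the consensus nor parts at up to 1 mismatch each had a median of 349 bp in both lists.

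**Figure D4:**
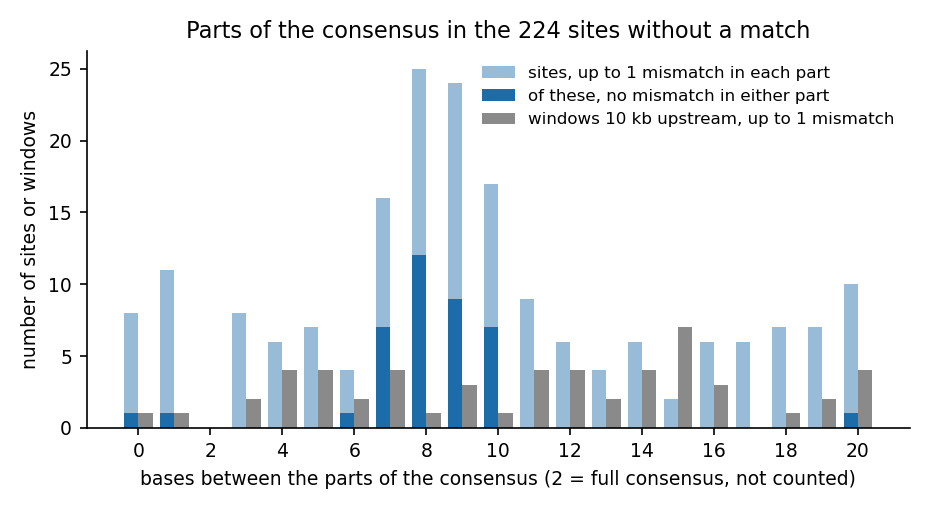
Number of sites (vertical axis) in which the left and right parts of the consensus stand a given number of bases apart (horizontal axis), among the 224 shared promoter sites without a consensus match. Light blue bars allow up to 1 mismatch in each part, dark blue bars none, and gray bars are the windows 10 kb upstream; the sites peak at 8 bases, with 25 against 1 window, and the pairs without mismatch lie mostly at 7 to 10 bases.

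At a few sites the parts stood closer, 0 or 1 base apart with at most 1 mismatch in all. There were 7 such sites among the 224 without a consensus match, and windows were not counted by this rule. With up to 1 mismatch in each part, 8 sites held the parts 0 bases apart and 11 held them 1 base apart. At each of these distances 1 window 10 kb upstream did. Shown are the sites at GPR158 and SCRT2, again among the widest with no match at 3 mismatches. Those at SCG2 and GLRA2, raised by the knockdown, are also shown.
GPR158 (chr10:25463539-25463551, minus strand): ggagCTGTCCaGTGCTGaa
SCRT2 (chr20:656319-656331, minus strand): ggagCTGTCCaGTGCTGaa
SCG2 (chr2:224467079-224467092, minus strand): ggagCTGTCCgtGTGCTGaa
GLRA2 (chrX:14547613-14547626, plus strand): ggagCTGTCCgaGTGCTGaa
GPR158, an orphan receptor, had a site of 1149 bp in both lists with the match 186 bp upstream of the 5′ end, and SCRT2, a neural repressor of the Snail family, had 999 and 949 bp with the match 121 bp downstream. At SCG2 the match lay 7 bp upstream of the 5′ end. The remaining sites in this group of the widest without a match were at VSTM2A (949 and 999 bp) and at KCNS2 (949 and 1049 bp). The site at VSTM2A held no split parts either.

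The promoter sites were rich in CpG. By a rule of at least 50% GC and an observed over expected CpG ratio of at least 0.6, 270 sites (56.6%, 52.1–61.0%) were CpG-rich, against 34% of windows of the same width and offset at all promoters and 4.50% of the other shared sites. The median observed over expected CpG ratio was 0.636 over the promoter sites and 0.190 over the other shared sites. Among promoter sites with a consensus match 52.2% were CpG-rich and among those without 61.6%, a difference of 9.43 points whose interval ran from 0.525 to 18.1. The share was 45.5% in sites of 99 to 299 bp and 72.4% in those of 849 bp and over. Promoter sites called at the basal dosage alone, with a median width of 149 bp, were CpG-rich in 44.8% (36.4–53.5%). Those called at the increased dosage alone, also with a median of 149 bp, were CpG-rich in 38.9% (30.2–48.3%). For the shared promoter sites the percentage moved with the distance limit, to 66.8% within 1 kb and 46.0% within 5 kb.

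Words of other promoter factors were counted on both strands as a description. The promoter windows were CpG-rich less often than the sites (34% against 56.6%), and the part of base composition in these shares was not tested. The SP/KLF word GGGGCGGGG was present in 103 sites (21.6%, 18.1–25.5%) and in 13.4% of the promoter windows. TATAAA was less frequent, in 10.9% (8.41–14%) against 23.4%, and the AP-1 word TGANTCA was in 8.60% (6.40–11.5%) against 12.7%. The cyclic AMP response element TGACGTCA was in 2.94% (1.76–4.87%) against 1.20%. The CTCF core word was in 1.26% (0.578–2.72%) against 0.349%, and CCAATCA in 4.40% (2.90–6.64%) against 6.79%. For the ETS, NRF1 and YY1 words the intervals included the window share. Of the SF-1 words, CAAGGTCA was found in 3.14% (1.91–5.12%) against 3.75% of the windows, and CAAGGCCA in 4.19% (2.73–6.39%) against 3.67%, both with intervals that include the window share. The form CAAGGACA, whose reverse complement can overlap the left part of the consensus, was in 4.82% (3.23–7.13%) against 2.82%. Of the 23 sites with this word, 19 held the NRSF/REST consensus. In sites without the consensus its share was 1.79% (0.697–4.50%), an interval that includes the window share.

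Between dosages the width of the promoter sites varied around no change. The median was 599 bp (quartiles 399 and 849 bp) at the basal and 649 bp (399 and 899 bp) at the increased dosage. Of the 477 sites, 186 were wider at the increased dosage, 179 narrower and 112 equal, and the median ratio of increased over basal width was 1.00 (quartiles 0.880 and 1.13). The ratio lay between 0.5 and 2 at 454 sites (95.2%, 92.9–96.8%). Among the other shared sites 34.8% were wider and 37.9% narrower. Over the 477 sites the rank correlation of the widths was 0.850 (Spearman), as a description.

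**Figure D5:**
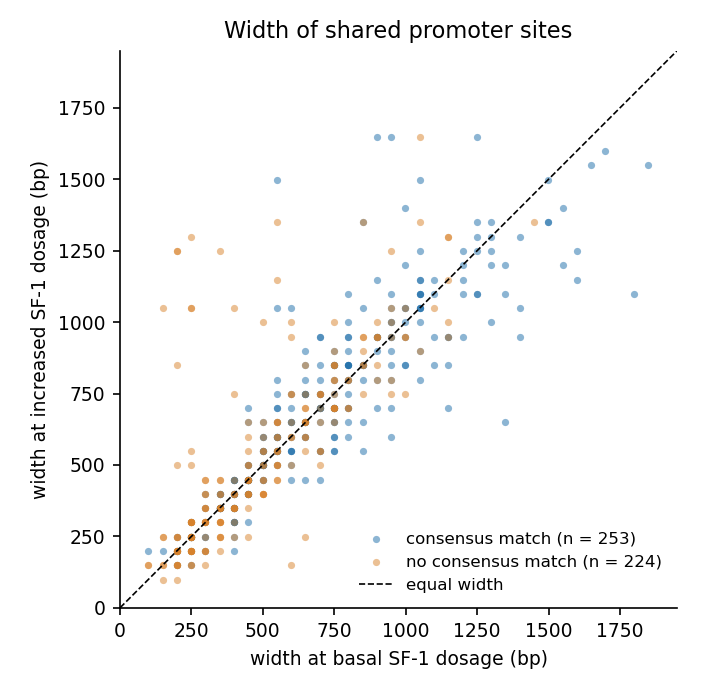
Width of the 477 shared promoter sites at the basal (horizontal axis) and increased (vertical axis) SF-1 dosage, in bp, with the line of equal width. Blue points are the 253 sites with a consensus match and orange points the 224 without; most points lie along the line, and the points at upper left are mostly narrow basal sites next to a wider one that overlap the same increased dosage site.

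The largest ratios came from sites that were divided in the basal list. The basal sites at SCN3B (149 bp) and GRIN1 (199 bp), near ASPHD1 (249 bp) and at ECSIT (199 bp) overlapped sites of 1049, 1249, 1299 and 849 bp, ratios of 7.04, 6.28, 5.22 and 4.27. Each shared its increased dosage site with a second and wider basal site, of 849 bp at SCN3B, 1049 bp at GRIN1, 1149 bp at SEZ6L2 beside ASPHD1 and 749 bp at ECSIT. There were 12 such increased dosage sites with 2 basal sites each, one of them the 1649-bp site of VGF over basal sites of 899 and 1249 bp. Among the 446 sites paired 1 to 1 the ratio ran from 0.249 to 3.58, and 97.8% lay between 0.5 and 2. The largest of these was at DRGX, a homeobox gene of sensory neurons, with sites of 349 and 1249 bp that overlapped by only 99 bp. The lowest ratios of all were at IFIT1B, with 599 and 149 bp, and PGR, the progesterone receptor, with 649 and 249 bp, and neither site held a match at up to 3 mismatches. They were followed by GHSR, the ghrelin receptor, with 1349 and 649 bp, MESP2, with 199 and 99 bp, and PHF21B, with 299 and 149 bp.

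Promoter sites called at 1 dosage were mostly narrow, and presence in both lists was the basis of the selection. The 125 found at the basal dosage alone and the 108 found at the increased dosage alone each had a median width of 149 bp. They held a consensus match in 14.4% and 6.48%, against 53.0% of the shared promoter sites, whose share rose with width. Among sites of up to 300 bp, 15 of 120 found at the basal dosage alone held a match (12.5%, 7.72–19.6%), and 19 of 88 shared promoter sites of that basal width did (21.6%, 14.3–31.3%), with overlapping intervals. At the increased dosage the counts were 7 of 103 (6.80%, 3.33–13.4%) and 22 of 89 (24.7%, 16.9–34.6%), with intervals that did not overlap. Within this limit the shared sites were still the wider, with a median of 249 bp against 149 bp at either dosage.

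Most sites, 437, had 1 protein-coding 5′ end within 2 kb, 38 had 2 and 2 had 3, and 35 genes had 2 or more sites. Where there were several genes, they were on opposite strands at 29 sites and on the same strand at 11. The 4 widest such sites were those of CELF6 and a gene without a symbol (1399 and 1049 bp), SEZ6L2 and ASPHD1 (1149 and 1299 bp), FBXL15 and PSD (849 and 1349 bp) and RIMS2 and a gene without a symbol (1099 and 1049 bp). The site of INA and NT5C2, 949 bp wide in both lists, held an unchanged consensus. For these sites the data do not tell which gene the binding concerns. At the 2-kb limit, the farthest sites included were near OR1I1, ANKRD29 and KRT33A, at 1997, 1975 and 1970 bp, and among the nearest left out were those near DENND1A and OLFM1, at 2006 and 2007 bp.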

How the data were processed

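NRSF/REST ChIP-seq sites were taken from the lists deposited by the authors, 1 for each SF-1 dosage in H295R/TR SF-1 cells. The authors mapped reads to hg19 (CASAVA 1.6 in the submitters' processing notes) and called sites in each library. The peak caller for NRSF/REST sites is not given in the sources used here. The deposited score is 1000 for every site, and an order number, whose basis is not stated, was not used.

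Sites were processed with Python 3.11.15, numpy 2.4.6, scipy 1.17.1, pysam 0.24.0 and matplotlib 3.10.9. Overlap required at least 1 bp. The nearest gene was the nearest protein-coding 5′ end of GENCODE release 44 on hg19 within 2 kb, those with a symbol first. Consensus matches on either strand had up to 2 mismatches over 13 fixed bases, and the best match was that with fewest mismatches, then nearest the midpoint. Sites on chromosome 8 were scanned for matches and for GC and CpG content like the others. Their sequences are not shown, and they were left out of the counts of bases in and around matches. Intervals are 95% Wilson intervals, and those of differences are Newcombe intervals. The limit given beside a count of 0 is 3 counts of the total instead. Sites that share a promoter or an increased dosage site are not independent, which the intervals do not cover.

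Named sites were the 10 widest, those at knockdown genes, the 6 unchanged matches nearest a 5′ end, the 5 widest without a match at 3 mismatches, genes of the lists, sites with several genes, the extremes of the width ratio and the edge of the 2-kb limit. A few sites that this rule names are not reported here. The sites, gene lists and tests were chosen with earlier results of these data known. On simulated data 200 of 200 planted consensus matches and 200 of 200 planted offsets were recovered. Of 200 simulated sites, 200 were rightly called as overlapping or not. The matches were planted in sequence of A and T only, so false matches in GC-rich sequence were not assessed by this check. Alternatives were other distances, overlaps, mismatches, 5′ ends of transcripts, the widest 50% of each list and a stricter CpG rule.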

Additional observations from a re-analysis of the deposited data

How the results depend on the processing

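The number of shared promoter sites ran from 337 to 646 over 6 alternatives, and the median width ratio was 1 in all 7. The share with the consensus was 61.3% in the widest 50% of each list, 19.7%, 38.4% and 75.7% at 0, 1 and 3 mismatches, and within its spread in the other 5 alternatives. The difference from other shared sites was 3.02 points at 0 mismatches, 3.51 points at 3 mismatches and -3.22 points with the 5′ ends of transcripts; in the other 10 alternatives, 4 of them the width classes added after seeing the data, it was negative with an interval below 0. With the 5′ ends of transcripts 39.7% of sites were upstream. Genes with a site made up 1.72% within 1 kb, 3.28% within 5 kb, 2.97% with the 5′ ends of transcripts and 1.89% in the widest 50% of each list. CpG-rich sites made up 66.8% within 1 kb, 46.0% within 5 kb, 50.9% with the 5′ ends of transcripts and 45.3% by a stricter rule (GC at least 55%, CpG ratio at least 0.65). The cause of these shifts was not tested. No paired analysis was possible because there was 1 library per dosage, and for the same reason no library could be left out. Depth is unknown, so a site missing from a list may have been below detection.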
